A study of Mus musculus with 8 samples.

Results

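The genes described here make, move and sense cholesterol in group 3 innate lymphoid cells (ILC3s), tissue lymphocytes that secrete interleukin 22 at barrier surfaces. They were chosen by name for their roles, as 8 enzymes that lead to farnesyl and geranylgeranyl diphosphate, 11 enzymes of the squalene and sterol steps, 5 genes of the SREBP control circuit and 7 genes of sterol transport, storage and oxysterol synthesis. All 31 were found among the 27179 genes of the count table, and 26 of them passed the filter on low counts, as did 8878 genes in all. Gene expression had been measured by RNA sequencing of CCR6+ ILC3s sorted from the large intestine of C57BL/6 mice at steady state. The deficient group, replicates 5 to 8, came from 4 Zbtb46f/f mice that also carry a Cre recombinase active in ILC3s, which removes the floxed part of Zbtb46, a zinc finger transcription factor. The sufficient group, replicates 1 to 4, came from 4 Zbtb46f/f mice with the same floxed alleles and no Cre, and its samples carry a wild type label. The groups therefore differ in Cre as well as in Zbtb46, this Cre is also active in T cells, and the labels name neither age nor sex.

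Cells build cholesterol from acetyl-CoA through mevalonate, squalene and lanosterol. When sterols in the endoplasmic reticulum run low, SCAP escorts SREBP transcription factors to the Golgi, where they are cut and released to turn on the enzymes, while INSIG proteins hold SCAP back when sterols are plentiful. Oxysterols made from cholesterol activate the LXR receptors, whose targets include the exporters ABCA1 and ABCG1.

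Library totals ran between 25328231 and 33760743 counts. An empty gene may therefore still lie anywhere under 0.0889 to 0.118 CPM, the worth of 3 counts in these totals without TMM factors. CPM is a count scaled to the library's total, and all other CPM values here use TMM factors. Libraries correlated at Spearman 0.679 to 0.785 within groups and at 0.651 to 0.760 between them, over all genes tested. The 7 ILC3 markers used, among them Ccr6 and Il7r, were found in both groups. Their summed levels were 18887 to 23514 CPM in deficient and 20370 to 30759 CPM in sufficient libraries. Most of each sum was Il22, at 13570 to 18953 CPM in deficient and 15031 to 25512 CPM in sufficient libraries. Transcripts listed as markers of other cells were also counted, some of them in single libraries. All 7 macrophage and neutrophil markers were found, and deficient replicates 5 and 7 held sums of 335 and 730 CPM of them, against 0.993 to 43.2 CPM in the other libraries. S100a8 and S100a9, a pair of neutrophil genes, made up 332 and 675 CPM of these sums, while Csf1r, C1qa and C1qb were at 0 counts in replicate 5. In replicate 7 Adgre1, C1qa, C1qb and Lyz2 were at 6.26, 7.35, 6.38 and 35.4 CPM. Sufficient replicate 2 held 1282 CPM of the 6 epithelial markers together, where the other libraries held 0.751 to 20.2 CPM. The 7 stromal and endothelial markers summed to 39.9, 14.0, 417 and 45.4 CPM in deficient libraries, against 786, 51.9, 109 and 115 CPM in sufficient libraries. Of these 7, 6 were found and the endothelial marker Cdh5 was at 0 counts throughout. Without Pecam1, which leukocytes also express, and Cdh5, the 5 stromal genes left summed to 0.0571, 0.152, 399 and 0 CPM in deficient libraries, against 777, 42.9, 89.0 and 78.1 CPM in sufficient libraries. NK cell and ILC1 marker sums were 553, 177, 201 and 292 CPM in deficient, against 36.9, 65.7, 94.5 and 246 CPM in sufficient libraries. Of these, Ncr1 alone gave 447, 148, 151 and 270 CPM in deficient, against 0.0391, 41.1, 67.4 and 198 CPM in sufficient libraries. Of these 6 markers 4 were found, while Eomes was at 2 counts or fewer and Prf1 at 0 counts throughout. The part of other cells in the results was not tested. Dendritic cell markers summed to 130 to 173 CPM in deficient and 89.9 to 134 CPM in sufficient libraries. These sums were almost wholly Xcr1, Batf3 and Irf8, while Flt3, Clec9a and Itgax were at 10 counts or fewer in every library. T cell markers summed to 29.2 to 132 CPM in deficient and 57.9 to 144 CPM in sufficient libraries. Cd4 gave 29.2 CPM in deficient replicate 6 and 57.1 CPM in sufficient replicate 4, almost the whole sums there. Cd3e was at 4 counts or fewer and Cd8a at 0 counts throughout.

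Zbtb46 itself had 4.82, 0.532, 3.19 and 0.125 CPM in deficient replicates 5, 6, 7 and 8, against 8.02, 48.8, 88.9 and 26.6 CPM in sufficient replicates 1, 2, 3 and 4. Values of single libraries are given in these orders throughout. The groups did not overlap. Exact permutation of the group labels gave a two-sided p of 0.0286, which is as small as 4 against 4 allows. In edgeR's quasi-likelihood test across all genes its log2 fold was -4.31 (SE 1.42) with an adjusted p of 0.885. The targeted gene itself thus did not pass edgeR's threshold of 0.05, while DESeq2 gave it an adjusted p of 0.0115. A gene that does not pass in edgeR here may therefore still differ.

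Most cholesterol genes were found at overlapping levels in deficient and sufficient ILC3s. The clearest separation was in Abca1, the exporter of cholesterol to lipid-poor apolipoproteins, with 1.88 ± 3.24 CPM in deficient and 62.4 ± 25.01 CPM in sufficient ILC3s (SD, n = 4 each). The 5 stromal genes, picked from the marker list after its values were seen, summed to near 0 in 3 of the 4 deficient libraries and were present in all sufficient ones. Sums of all 7 stromal and endothelial markers overlapped between the groups. In sufficient replicates 3 and 4 the sum of the 5 genes was almost all Dcn, and in sufficient replicate 2 it was mostly Col3a1. The part of stromal transcripts in this difference was not tested. Sc5d, a late sterol desaturase, was the other gene whose groups did not overlap, also with deficient libraries below sufficient ones. Sqle, the squalene epoxidase, had the second smallest p, with the higher mean in deficient ILC3s. None of the 26 genes tested passed edgeR's adjusted p of 0.05, and 0 of 8878 genes did (0%). At an unadjusted p under 0.05, 2 of the 26 (7.69%) were called, Abca1 and Sqle, against 364 of all genes tested (4.1%). Groups did not overlap for 2 of the 26 (7.69%), against 387 of all genes tested (4.36%). Both lay lower in deficient ILC3s, as did 186 of all genes tested (2.1%). With counts this small, the members' shares cannot be set apart from the background. DESeq2 gave adjusted p-values under 0.05 to 2 of the 28 cholesterol genes for which it returned one, Abca1 (0.0257) and Dhcr7 (0.0482), against 374 of 11478 genes (3.26%). Fitted folds, deficient over sufficient, were above 0 on the log2 scale for 14 genes and below 0 for 12, with a median of 0.27 beside 0.02 over all genes tested. With 1 library left out this median lay between -0.23 and 0.59, and it was below 0 without sufficient replicate 1 (-0.084) or deficient replicate 5 (-0.23), 7 (-0.15) or 8 (-0.080). In bulk samples such as these, fewer cells of a type and less RNA per cell cannot be told apart.

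**Figure D1:**
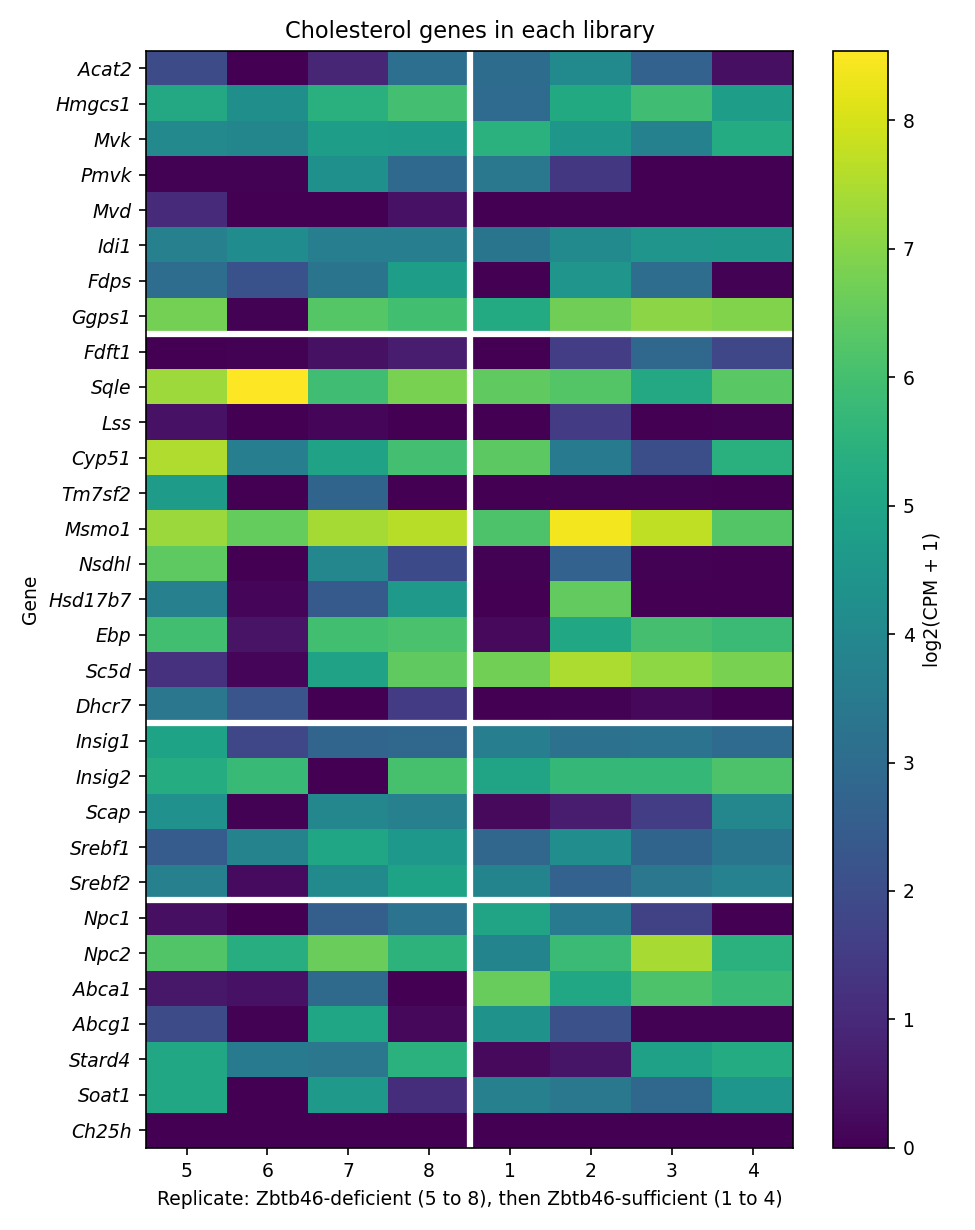
Level of each of the 31 cholesterol genes, as log2(CPM + 1) on the colour scale, in the 4 deficient libraries (left, replicates 5 to 8) and the 4 sufficient libraries (right, replicates 1 to 4); white lines part the genes by role. Abca1 and Sc5d are bright in every sufficient library, and deficient replicate 6 is dark for many enzymes but brightest for Sqle, at 372 CPM.

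The stretches upstream of 4 of these genes are shown because they hold letter patterns of the circuit above or belong to the genes whose groups did not overlap. Each line gives the 250 bases before the annotated start, on the gene's own strand, from the RefSeq promoter table of GRCm38.p6. Capitals mark the sterol regulatory pattern TCACNCCAC, the CCAAT box (CCAAT, or ATTGG on the other strand) and an LXR-type pattern of TGACCG and TAACC with 4 bases between them. The coordinates are chr13:119690101-119690350 (+) for Hmgcs1, chr9:42264301-42264550 (-) for Sc5d, chr11:60210472-60210721 (-) for Srebf1 and chr4:53159896-53160145 (-) for Abca1.
Hmgcs1: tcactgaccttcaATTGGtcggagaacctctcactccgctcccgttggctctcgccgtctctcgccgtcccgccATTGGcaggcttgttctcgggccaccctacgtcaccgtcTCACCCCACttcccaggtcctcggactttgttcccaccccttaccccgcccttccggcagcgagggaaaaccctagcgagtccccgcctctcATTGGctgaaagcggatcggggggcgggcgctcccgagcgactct
Sc5d: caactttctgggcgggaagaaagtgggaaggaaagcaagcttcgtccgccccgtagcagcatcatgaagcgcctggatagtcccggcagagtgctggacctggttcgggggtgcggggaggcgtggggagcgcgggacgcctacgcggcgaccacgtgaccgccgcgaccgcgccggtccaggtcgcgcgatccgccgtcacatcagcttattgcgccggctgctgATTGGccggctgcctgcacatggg
Srebf1: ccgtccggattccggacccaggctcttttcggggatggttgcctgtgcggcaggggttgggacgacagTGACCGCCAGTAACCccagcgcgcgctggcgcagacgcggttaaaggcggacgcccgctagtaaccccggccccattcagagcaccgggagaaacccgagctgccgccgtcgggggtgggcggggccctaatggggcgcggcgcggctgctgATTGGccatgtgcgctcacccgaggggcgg
Abca1: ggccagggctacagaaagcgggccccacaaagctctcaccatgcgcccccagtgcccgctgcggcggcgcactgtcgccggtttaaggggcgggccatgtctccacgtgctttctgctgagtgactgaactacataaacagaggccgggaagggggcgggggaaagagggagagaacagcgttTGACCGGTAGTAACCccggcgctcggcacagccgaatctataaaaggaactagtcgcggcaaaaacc

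All patterns were searched on both strands of windows from 250 bases before to 50 bases after each start, and matches may overlap. Of the 25 cholesterol genes matched to the table by symbol, 21 held a CCAAT box, against 41.1% of all 27025 genes in the table. The GC box GGGCGG, which is not in capitals above, was held by 22 of the 25, against 38.2% of all genes. The sterol pattern was held by Hmgcs1 alone among the 25, with its first base 137 bases before the start, against 1.44% of all genes. The LXR-type pattern was taken from knowledge of the human ABCA1 promoter and was searched after the expression values had been seen. It was held by 4 of all 32851 windows, among them those of Abca1 and the third annotated start of Srebf1. Its first base lay 67 bases before the start of Abca1 and 182 bases before that of Srebf1. Because the letters were taken from the ABCA1 promoter, the match in Abca1 cannot be read as enrichment. Abcg1 was not among the genes matched to the table. A match is a run of letters and was not tested as a binding site.

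The enzymes that make isoprenoid diphosphates from acetyl-CoA were found at overlapping levels in the groups, with fitted folds above 0 for 3 and below 0 for 4 of the 7 tested. Hmgcs1, which condenses acetoacetyl-CoA and acetyl-CoA, had 34.8, 17.9, 42.1 and 62.0 CPM in deficient ILC3s, against 6.85, 35.1, 59.5 and 26.5 CPM in sufficient ILC3s. Mvk, mevalonate kinase, had 15.4, 14.2, 26.0 and 25.6 CPM in deficient ILC3s, against 42.7, 22.1, 12.5 and 37.0 CPM in sufficient ILC3s. Both genes were well counted in every library, and the ranges of the groups overlapped. Their log2 folds were 0.29 (SE 0.81) for Hmgcs1 and -0.49 (SE 0.84) for Mvk, within 1 SE of 0. Idi1, which interconverts the isoprene units isopentenyl and dimethylallyl diphosphate, was the evenest gene of the group. It had 12.0, 16.8, 11.6 and 11.5 CPM in deficient ILC3s, against 9.001, 15.9, 20.8 and 21.8 CPM in sufficient ILC3s, with a log2 fold of -0.38 (SE 1.01).

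Fdps, the farnesyl diphosphate synthase, had 7.28, 3.49, 8.79 and 26.7 CPM in deficient ILC3s, against 0, 21.0, 7.24 and 0.0393 CPM in sufficient ILC3s. It was thus found in all deficient libraries and was at 0 or 1 count in sufficient replicates 1 and 4, while the log2 fold was 0.71 (SE 1.94). Ggps1, which adds a further isoprene unit to give the geranylgeranyl diphosphate used to anchor small GTPases, had 106, 0.038, 77.8 and 60.7 CPM in deficient ILC3s, against 36.4, 102, 132 and 120 CPM in sufficient ILC3s. A single deficient library, replicate 6, was near 0, and the other 7 lay between 36.4 and 132 CPM. Its log2 fold was -0.68 (SE 1.20). Acat2, the cytosolic thiolase of the first step, ran between 0 and 7.63 CPM in deficient and between 0.275 and 15.9 CPM in sufficient ILC3s. Pmvk, phosphomevalonate kinase, ran between 0.0285 and 18.6 CPM in deficient and between 0 and 9.74 CPM in sufficient ILC3s. Mvd, mevalonate diphosphate decarboxylase, did not pass the filter, with 47 counts in all deficient and 1 count in all sufficient libraries, and 36 of the 47 came from deficient replicate 5. All 3 genes were below 1 CPM in at least 1 library of each group.

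Among the squalene and sterol enzymes Sqle had the smallest p and Sc5d alone had groups without overlap, with fold signs opposite to each other, while fitted folds were above 0 for 4 and below 0 for 4 of the 8 tested. Sqle, which adds oxygen to squalene and is a rate-limiting step of the branch, had 156, 372, 59.5 and 112 CPM in deficient ILC3s, against 86.5, 75.5, 34.8 and 80.1 CPM in sufficient ILC3s. Of the deficient libraries 3 lay above all sufficient ones, and replicate 7 lay below 3 of them. The means were 175 ± 137 CPM in deficient and 69.2 ± 23.4 CPM in sufficient ILC3s (SD, n = 4 each). In edgeR the log2 fold was 1.34 (SE 0.56) with an unadjusted p of 0.0373 and an adjusted p of 0.9999. The fold rests in part on deficient replicate 6, without which it was 0.66.

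Sc5d, the lathosterol desaturase that acts just before the last steps to cholesterol, had 1.34, 0.114, 29.1 and 86.7 CPM in deficient ILC3s, against 104, 178, 135 and 113 CPM in sufficient ILC3s. Deficient values were spread between near 0 and just under the lowest sufficient value, so the groups did not overlap. The means were 29.3 ± 40.5 CPM in deficient and 133 ± 33.1 CPM in sufficient ILC3s (SD, n = 4 each). In edgeR's quasi-likelihood test the log2 fold was -2.18 (SE 1.33), with an adjusted p of 0.9999. Over 18 alternative settings the log2 fold lay between -3.71 and -1.43.

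**Figure D2:**
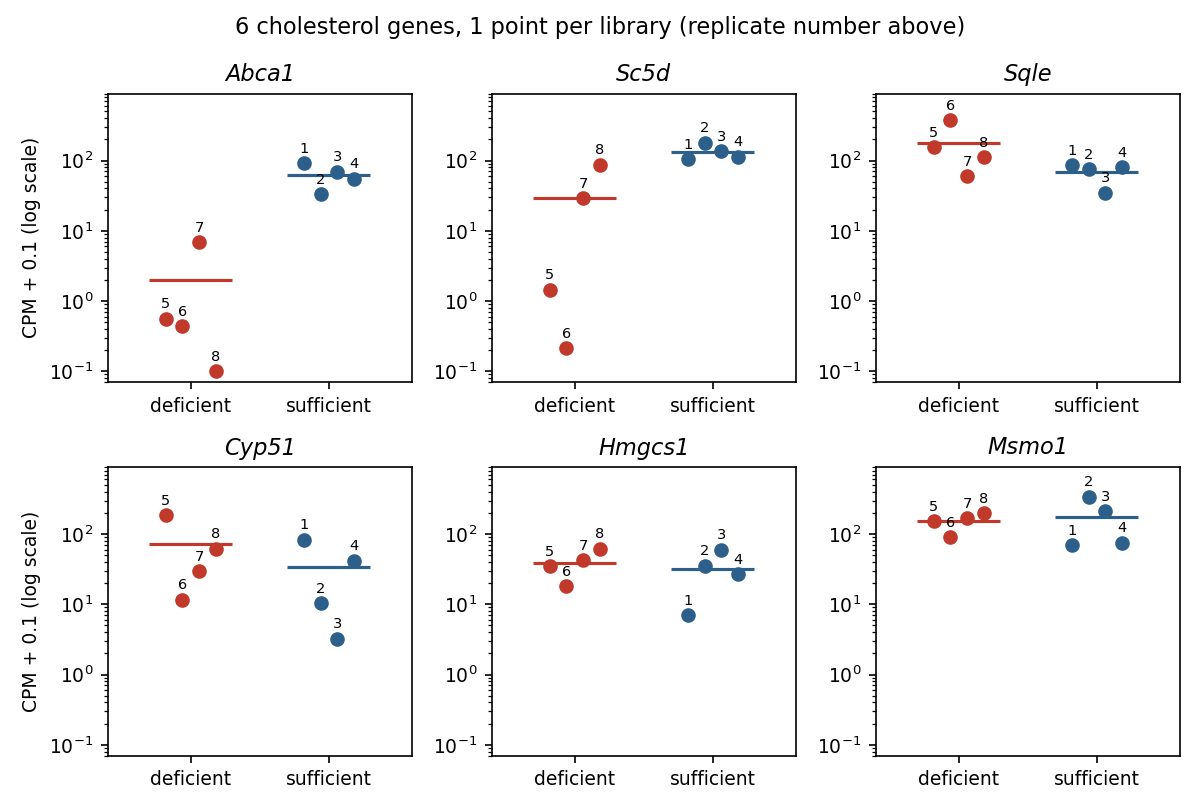
CPM + 0.1 on a log axis for 6 cholesterol genes in deficient ILC3s (left, red) and sufficient ILC3s (right, blue); each point is 1 library with its replicate number, and each line is the arithmetic mean of 4 libraries. The groups are separate for Abca1 and Sc5d and overlap for Sqle, Cyp51, Hmgcs1 and Msmo1.

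Cyp51, the lanosterol demethylase, had 185, 11.6, 29.6 and 62.1 CPM in deficient ILC3s, against 82.6, 10.2, 3.13 and 41.5 CPM in sufficient ILC3s. Msmo1, which oxidises the methyl groups that are then removed from the sterol ring, had 152, 90.8, 167 and 198 CPM in deficient ILC3s, against 69.7, 339, 212 and 75.7 CPM in sufficient ILC3s. Ebp, the sterol isomerase, had 60.9, 0.380, 61.4 and 67.2 CPM in deficient ILC3s, against 0.157, 33.8, 64.5 and 55.4 CPM in sufficient ILC3s. The groups overlapped for all 3 genes, and for Ebp 1 library of each group was near 0 while the others lay between 33.8 and 67.2 CPM. Log2 folds were 1.07 (SE 1.07) for Cyp51, -0.19 (SE 0.52) for Msmo1 and 0.30 (SE 1.43) for Ebp. That of Cyp51 was 0.0051 without deficient replicate 5 and 1.98 without sufficient replicate 1.

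Other sterol enzymes were seen in few libraries. Nsdhl, a dehydrogenase of the demethylation complex, had 83.9, 0, 14.4 and 2.82 CPM in deficient ILC3s, against 0.0391, 5.42, 0.0360 and 0 CPM in sufficient ILC3s. Hsd17b7, its partner ketoreductase, had 12.1, 0.0759, 4.41 and 23.1 CPM in deficient ILC3s, against 0, 88.9, 0 and 0 CPM in sufficient ILC3s. Both therefore had more than 3 counts in 3 deficient libraries, and among sufficient libraries in replicate 2 alone, the library with the epithelial markers, whose part in these values was not tested. Their log2 folds were 4.20 (SE 2.64) for Nsdhl and -1.16 (SE 2.61) for Hsd17b7, and without sufficient replicate 2 they were 9.74 for Nsdhl and 11.17 for Hsd17b7. That of Nsdhl was 2.05 without deficient replicate 5. Fdft1, the squalene synthase, was low throughout, between 0 and 0.594 CPM in deficient and between 0 and 6.20 CPM in sufficient ILC3s, with a log2 fold of -3.48 (SE 1.86). Fdft1 overlaps Ctsb in the annotation, and the labels do not say whether strand was used in counting.

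Of the sterol enzymes left out by the filter, Dhcr7 and Tm7sf2 were counted mostly in deficient ILC3s and Lss was near 0 in most libraries. Dhcr7, a late reductase of the pathway, had 334, 98, 0 and 59 counts in deficient libraries, against 0, 1, 4 and 0 counts in sufficient libraries. Tm7sf2, a sterol reductase of the endoplasmic reticulum, had 888, 0, 184 and 0 counts in deficient libraries, against 0, 1, 1 and 0 counts in sufficient libraries. Dhcr7 was thus found in deficient replicates 5, 6 and 8. Tm7sf2 was found in deficient replicates 5 and 7, the libraries with the most S100a8 and S100a9, and the part of neutrophils in its counts was not tested. DESeq2 gave Dhcr7 a log2 fold of 6.36 (SE 2.01) and an adjusted p of 0.0482. Lss, lanosterol synthase, had 12, 0, 3 and 0 counts in deficient libraries, against 0, 44, 0 and 1 counts in sufficient libraries. Lss overlaps 4930483K19Rik and Tm7sf2 overlaps Vps51 in the annotation, so reads of these pairs may be shared.

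Summed over the 19 enzymes, levels were 865, 531, 558 and 756 CPM in deficient ILC3s, against 455, 949, 694 and 575 CPM in sufficient ILC3s. The sums overlapped and neither group was uniformly higher.

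**Figure D3:**
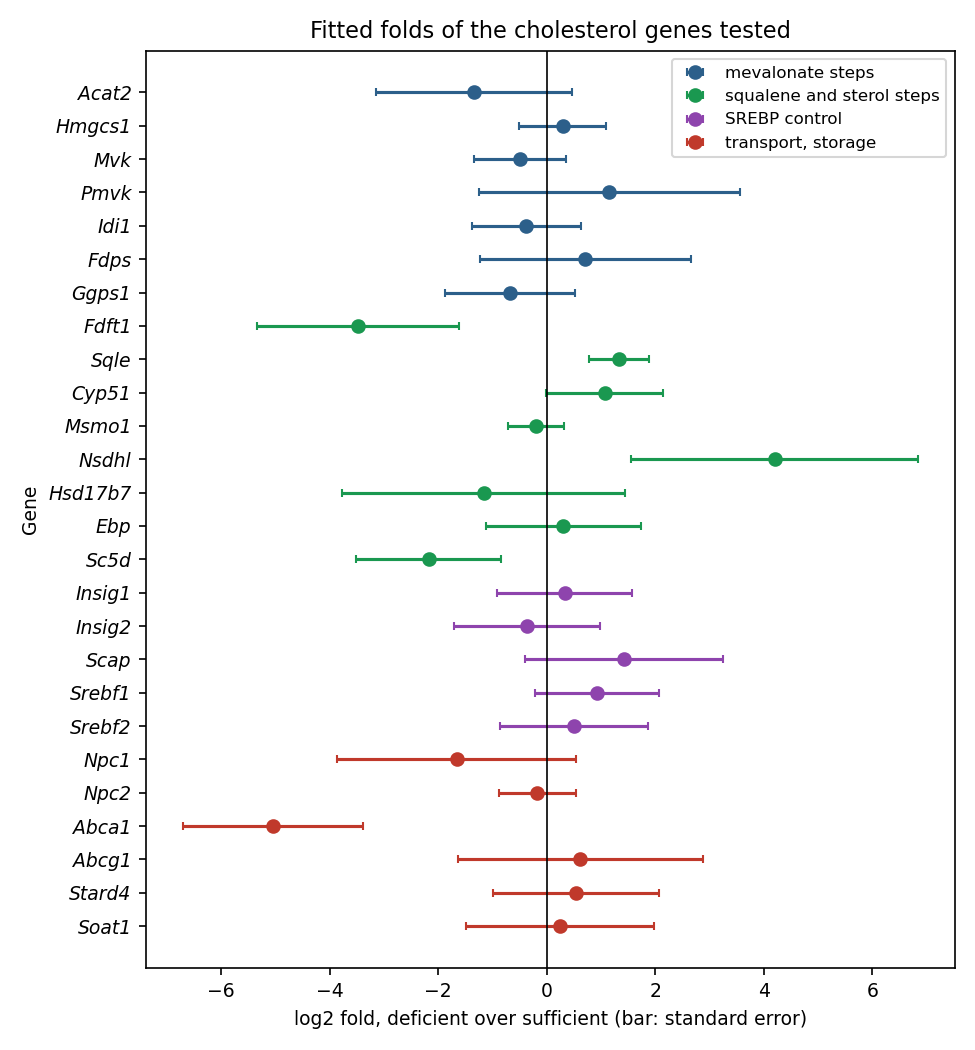
Log2 fold, deficient over sufficient, of each of the 26 cholesterol genes tested, with bars of 1 standard error from edgeR's fit; colours give the role of the gene. Folds lie on both sides of 0, with Abca1 lowest at -5.05 and Nsdhl highest at 4.20.

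The genes that sense sterols and release SREBP had overlapping levels in both groups, with fitted folds above 0 for 4 of 5. Srebf1, which encodes the SREBP proteins tied mostly to fatty acid synthesis, had 4.57, 13.2, 32.0 and 22.6 CPM in deficient ILC3s, against 5.99, 17.3, 5.69 and 9.001 CPM in sufficient ILC3s. Srebf2, which encodes the main driver of the cholesterol enzymes, had 12.1, 0.190, 15.5 and 30.1 CPM in deficient ILC3s, against 13.4, 5.46, 9.37 and 12.7 CPM in sufficient ILC3s. For both, 2 or more deficient libraries were above every sufficient one and at least 1 was below all of them. Scap, the SREBP escort, had 19.1, 0.038, 14.6 and 12.2 CPM in deficient ILC3s, against 0.157, 0.579, 1.95 and 14.5 CPM in sufficient ILC3s. Scap was over 10 CPM in 3 deficient libraries and 1 sufficient library. The log2 folds were 0.93 (SE 1.14) for Srebf1, 0.50 (SE 1.37) for Srebf2 and 1.42 (SE 1.83) for Scap.

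The INSIG genes had fitted folds closer to 0. Insig1, itself a SREBP target, had 29.7, 2.54, 5.91 and 6.35 CPM in deficient ILC3s, against 11.7, 8.19, 8.65 and 6.84 CPM in sufficient ILC3s. Insig2, the form that is less tied to SREBP, had 37.7, 54.2, 0 and 66.1 CPM in deficient ILC3s, against 31.0, 50.7, 51.1 and 70.2 CPM in sufficient ILC3s. A single deficient library departed from the rest in each case, replicate 5 upward for Insig1 and replicate 7 at 0 counts for Insig2. The log2 folds were 0.33 (SE 1.24) for Insig1, which became -0.84 without deficient replicate 5, and -0.36 (SE 1.34) for Insig2, which became 0.06 without deficient replicate 7. Srebf1 overlaps Rai1 and Srebf2 overlaps Mir33 in the annotation.

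Among the transport and storage genes Abca1 was the one with a clear gap. Abca1 (Entrez ID 11303, chromosome 4, 53030789 to 53159988 on the minus strand) had 0.457, 0.342, 6.73 and 0 CPM in deficient ILC3s, against 92.2, 32.8, 69.7 and 54.9 CPM in sufficient ILC3s. All deficient libraries lay below the lowest sufficient one, and replicate 7 lay above the other 3 deficient ones. In edgeR the log2 fold was -5.05 (SE 1.66), with an unadjusted p of 0.0123 and an adjusted p of 0.885. Over the same 18 settings its log2 fold lay between -8.72 and -4.46 and its adjusted p between 0.0257 and 1, and the value under 0.05 was DESeq2's. The call therefore depends on the tool. The separation of the libraries is read from CPM values and is not the result of a test.

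Stromal transcripts were also unequal between libraries. The stromal transcript Dcn, decorin, had 0, 0, 134 and 0 CPM in deficient ILC3s, against 687, 4.51, 88.9 and 78.0 CPM in sufficient ILC3s. Deficient replicate 7, which held Dcn, was the deficient library with the most Abca1. The 5 stromal genes together were at 0.0571, 0.152 and 0 CPM in deficient replicates 5, 6 and 8, in which Abca1 was below 1 CPM, and at 42.9 CPM or more in every sufficient library. Deficient replicate 7 is the deficient library in which both were present, with 399 CPM of the stromal genes and 6.73 CPM of Abca1. In sufficient replicates 3 and 4 the sum was almost all Dcn, with Col1a1, Col1a2, Col3a1 and Pdgfra at 0.0786 CPM or less. For sufficient replicate 2 it was mostly Col3a1, at 37.9 CPM, with Col1a1, Col1a2 and Pdgfra at 0.207 CPM or less. The part of stromal cells in the difference was not tested.

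Abcg1, which exports cholesterol to mature lipoproteins and like Abca1 is an LXR target, ran between 0.038 and 32.3 CPM in deficient and between 0.0360 and 19.6 CPM in sufficient ILC3s. It was highest in deficient replicate 7 and sufficient replicate 1, the libraries with the largest stromal sums, and its log2 fold of 0.62 (SE 2.26) became -2.45 without deficient replicate 7. Deficient replicate 7 also held the largest sum of macrophage and neutrophil markers, at 730 CPM, while sufficient replicate 1 held 9.59 CPM. The part of stromal or myeloid cells in the values of Abca1 and Abcg1 was not tested. The exporters thus differed in pattern: Abca1 followed the groups and Abcg1 did not.

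**Figure D4:**
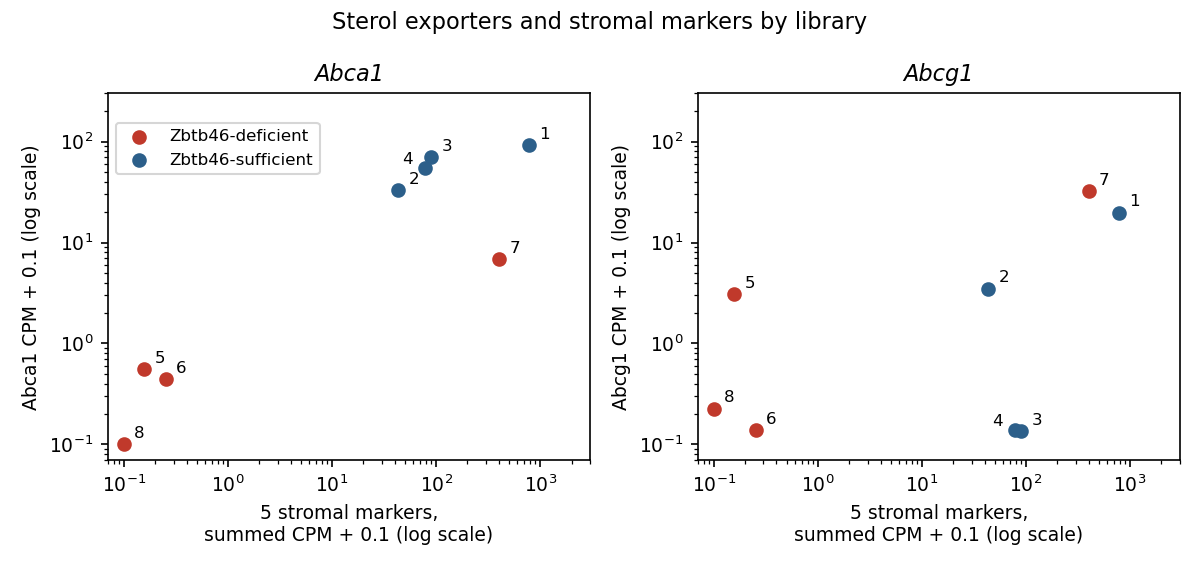
CPM + 0.1 of Abca1 (left) and Abcg1 (right) against the summed CPM + 0.1 of 5 stromal markers (Col1a1, Col1a2, Col3a1, Dcn and Pdgfra), both on log axes; each point is 1 library with its replicate number, deficient in red and sufficient in blue. Abca1 and the stromal sum are both low in deficient replicates 5, 6 and 8 and both present in all sufficient libraries. In sufficient replicates 3 and 4 that sum is almost all Dcn, and in sufficient replicate 2 it is mostly Col3a1. Deficient replicate 7 holds 399 CPM of the markers and 6.73 CPM of Abca1.

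The other transport genes showed no separation. Npc1, the membrane protein that hands cholesterol out of lysosomes, had 0.285, 0, 4.97 and 8.48 CPM in deficient ILC3s, against 31.0, 10.3, 2.23 and 0 CPM in sufficient ILC3s. Npc2, its soluble partner in the lysosome, had 73.4, 39.3, 95.4 and 44.8 CPM in deficient ILC3s, against 13.6, 55.9, 173 and 42.4 CPM in sufficient ILC3s. Npc2 was counted in every library while Npc1 was at 0 in 1 library of each group, and both overlapped. Stard4, a soluble sterol carrier, had 33.9, 10.9, 9.42 and 42.5 CPM in deficient ILC3s, against 0.157, 0.414, 28.6 and 37.5 CPM in sufficient ILC3s. Soat1, which esterifies cholesterol for storage in droplets, had 33.7, 0, 23.4 and 1.19 CPM in deficient ILC3s, against 12.1, 9.805, 6.20 and 21.2 CPM in sufficient ILC3s. Stard4 was below 1 CPM in 2 sufficient libraries and Soat1 was spread most widely among deficient ones. Log2 folds were -1.66 (SE 2.20) for Npc1, -0.17 (SE 0.72) for Npc2, 0.54 (SE 1.53) for Stard4 and 0.24 (SE 1.73) for Soat1. With 1 library left out, Npc1 lay between -2.63 (without deficient replicate 8) and -0.29 (without sufficient replicate 1), and Stard4 between 0.12 (without deficient replicate 8) and 1.31 (without sufficient replicate 4). Npc1 overlaps Rmc1 in the annotation.

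Ch25h, which makes 25-hydroxycholesterol, had 0 counts in all 8 libraries. Its level was therefore under the 0.0889 to 0.118 CPM that 0 counts allow before TMM scaling. Gpr183, the receptor for oxysterols made from that product, was by contrast among the strongly counted genes, at 1510 ± 463 CPM in deficient and 1768 ± 464 CPM in sufficient ILC3s (SD, n = 4 each). The log2 fold of Gpr183 was -0.23 (SE 0.27), and its libraries overlapped.

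Set per kilobase of merged exon, levels over the 8 libraries were highest for Msmo1 at 68.7 ± 37.8, Sqle at 44.2 ± 38.9, Ebp at 24.7 ± 16.2 and Npc2 at 20.4 ± 14.9 CPM per kilobase (SD, n = 8). Next came Ggps1 at 16.8, Sc5d at 16.7 and Insig2 at 15.0 CPM per kilobase. By group, Sqle had 63.4 ± 49.7 CPM per kilobase in deficient and 25.1 ± 8.47 in sufficient ILC3s, and Sc5d had 6.02 ± 8.33 in deficient and 27.3 ± 6.81 in sufficient ILC3s (SD, n = 4 each). Msmo1 had the highest mean in both groups, followed by Sqle in deficient and by Sc5d in sufficient ILC3s. In deficient ILC3s Msmo1, at 64.1 ± 19.1 CPM per kilobase, could not be set apart from Sqle. At the low end stood Fdft1 at 0.394, Mvd at 0.101 and Lss at 0.0583 CPM per kilobase, with Ch25h at 0. Enzymes of one pathway thus lay far apart in level, with Msmo1 and Lss at its ends among those counted. In this order 0 of 30 neighbouring pairs differed by more than the larger of their SDs.

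Much of the spread of these genes ran between mice of a group. The median coefficient of variation of the 26 tested genes was 87.2% in deficient and 74% in sufficient ILC3s, against 68.5% and 71.3% over all genes tested. Of the 26, 14 (53.8%) had at least 1 library with 3 counts or fewer, against 39.4% of all genes tested, and their median level was 15.5 CPM beside 28.28 CPM. Deficient replicate 6 accounted for most of this on its side, with 11 of 26 genes (42.3%) at 3 counts or fewer beside 15.6% of all genes tested, yet it had the highest Sqle of all libraries. Sufficient replicate 1 was the lowest library for 9 of the 26 genes and sufficient replicate 2 for 0. The library that was highest also varied by gene, with deficient replicates 5 and 8 highest for 5 genes each.

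**Figure D5:**
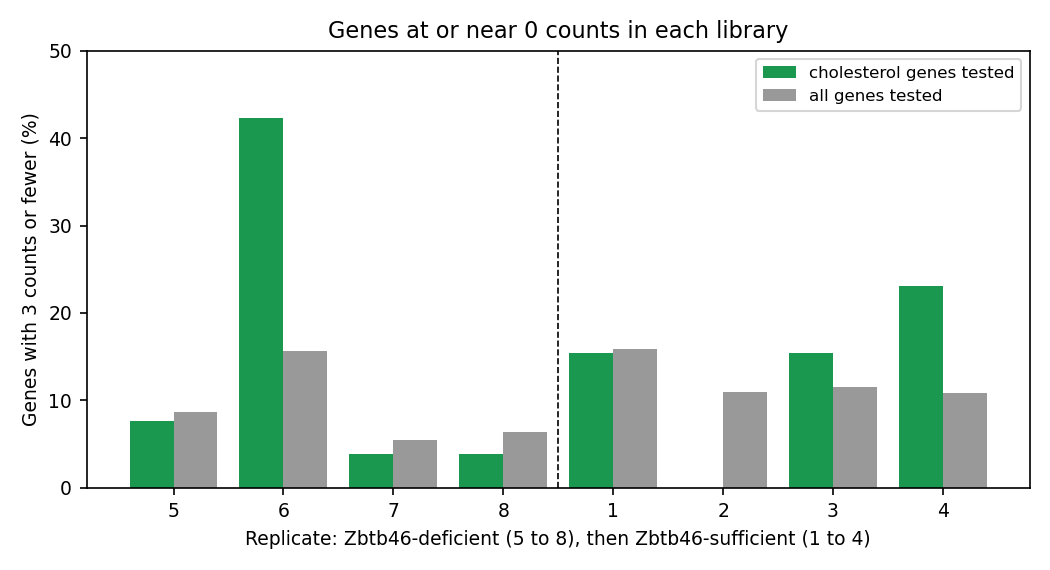
Percentage of genes with 3 counts or fewer in each library, for the 26 cholesterol genes tested (green) and all 8878 genes tested (grey), with deficient replicates 5 to 8 left of the dashed line and sufficient replicates 1 to 4 right of it. The green bar of deficient replicate 6 reaches 42.3% and that of sufficient replicate 2 is at 0.

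Genes around the pathway gave a like picture. Of 63 further genes taken for their roles, 46 were tested, 0 passed edgeR's adjusted p of 0.05 in either direction, 26 had fitted folds above 0 and 20 below, and the median was 0.21. Groups did not overlap for 0 of the 46, and an unadjusted p under 0.05 was reached by 2 (4.35%), a share near that of all genes. DESeq2 called 1 of the 50 for which it returned an adjusted p. That gene was Acaca, acetyl-CoA carboxylase of fatty acid synthesis, with 11.0, 1.03, 2.69 and 15.0 CPM in deficient ILC3s, against 0.117, 1.08, 0.0721 and 0.118 CPM in sufficient ILC3s. Deficient replicates 5, 7 and 8 lay above all sufficient libraries and replicate 6 just under the highest of them. Its log2 fold in edgeR was 4.41 (SE 1.63), with an unadjusted p of 0.0221 and an adjusted p of 0.9999, and its adjusted p in DESeq2 was 0.0112. Mid1ip1, which promotes the assembly of active acetyl-CoA carboxylase, had 1.75 ± 2.55 CPM in deficient and 4.92 ± 5.53 CPM in sufficient ILC3s (SD, n = 4 each). Of the 13 fatty acid genes under SREBP, 7 were tested, 4 with folds above 0 and 3 below. Among the 10 further SREBP and LXR regulators, 7 were tested, 5 with folds above 0 and 2 below. The smallest p there belonged to Erlin2, an endoplasmic reticulum protein that takes part in the turnover of sterol-regulated proteins, with 13.2 ± 8.81 CPM in deficient and 41.5 ± 27.3 CPM in sufficient ILC3s. Next was Mbtps1, the protease that first cuts SREBP, with 62.7 ± 39.9 CPM in deficient and 40.8 ± 10.2 CPM in sufficient ILC3s. Neither passed, with adjusted p-values of 0.9999 in edgeR. Of the 6 genes of oxysterol enzymes and receptor, 3 were tested, 2 with folds above 0 and 1 below, with Gpr183 and Sult2b1 at the smallest p-values. Sult2b1, a sterol sulfotransferase, had 12.0 ± 12.4 CPM in deficient and 5.57 ± 5.08 CPM in sufficient ILC3s.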

How the data were processed

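Per the labels' protocols, cDNA of sorted cells was amplified with a kit for very small RNA inputs. Each of 8 mice gave 1 library, so p-values measure the spread between mice and library preparations together. Per the submitters' processing notes, the mm10 build, STAR 2.3.0 and CASAVA 1.8.2 were used. How reads were counted, with which annotation and whether by strand, is not stated there. The authors deposited whole-number read counts per Entrez gene ID without normalization. Symbols came from RefSeq's table for GRCm38.p6 (mm10) and were found for 25275 of 27179 genes.

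Groups were taken from the sample labels. Deficient and sufficient libraries were compared with edgeR 4.0.16 (R 4.3.3), by the quasi-likelihood F test after TMM scaling and filtering with filterByExpr, with p-values adjusted over the 8878 genes tested by the Benjamini-Hochberg method and a threshold of 0.05. Standard errors were derived from the F statistic. The code of the fit was checked on simulated counts with 200 changed genes, with a pass rule for a small spread between libraries only. This check does not show how many real changes the fit would find at the spread of these data. Alternatives were scaling by RLE, by the upper quartile or by totals alone, other filters, DESeq2 1.42.0, limma 3.58.1 (voom with quality weights), robust dispersions, each library left out and, chosen after the data were seen, 2 sets of libraries left out. CPM values use TMM-scaled library sizes, and levels per kilobase use merged exons of GENCODE vM21. Counting limits cover counting error only, since amplified reads are not independent molecules.

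The cholesterol genes and the other lists were chosen with earlier results of these data known. Of the ILC3 markers chosen, 1 is not reported here and is left out of the sums. The 5 stromal genes set beside Abca1 and Abcg1 were picked from the marker list after its values were seen. Every cholesterol gene is named. Those with a mean of at least 10 CPM in either group, an unadjusted p under 0.05 or groups without overlap are given by library, together with sparse enzymes shown by their counts. Of each further list, genes past the threshold or otherwise the 2 with the smallest p are named. Sequence patterns were searched in the RefSeq promoter table.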

Additional observations from a re-analysis of the deposited data

Results flagged for a closer look

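In 9 of 54 sets of 4 libraries (the 26 cholesterol genes tested and Zbtb46, in 2 groups), the highest or lowest library lay far from the other 3 by Dixon's criterion, where chance flags about 1 in 20 groups. None of these values was left out, and the part of any cell type or library quality in them was not tested.

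Among deficient libraries, Abca1 had 6.73 CPM in replicate 7 against 0 to 0.457 CPM in the other 3, and Abcg1 had 32.3 CPM in replicate 7 against 0.038 to 3.00 CPM in the others. Insig1 had 29.7 CPM in replicate 5, with 2.54 to 6.35 CPM in the others. Replicate 6 stood apart upward for Idi1, at 16.8 CPM against 11.5 to 12.0 CPM, and downward for Ebp, at 0.380 CPM against 60.9 to 67.2 CPM.

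Among sufficient libraries, Pmvk had 9.74 CPM in replicate 1 against 0 to 1.61 CPM in the other 3. Replicate 2 stood apart for Nsdhl, at 5.42 CPM against 0 to 0.0391 CPM, and for Hsd17b7, at 88.9 CPM with the other 3 libraries at 0. Scap had 14.5 CPM in replicate 4, with 0.157 to 1.95 CPM in the others.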

How the results depend on the processing

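No paired analysis was possible because deficient mice are numbered 5 to 8 and sufficient mice 1 to 4, so no number is shared. Under 18 alternatives, 12 of the 26 cholesterol genes tested kept the sign of their log2 fold in all that fitted them, Abca1, Sc5d and Sqle among them, and 14 changed sign in at least 1; the causes were not tested. DESeq2 called 2 cholesterol genes, 1 gene of the further lists (Acaca) and 374 genes in all, where edgeR called 0. Without a filter edgeR called 2 genes of all tested, and with 1 library left out 0 to 2, the 2 coming without deficient replicate 6. The number of cholesterol genes with separate groups was 2 to 4 with 1 library left out (4 without deficient replicate 7), 4 without sufficient replicate 1 and deficient replicate 6, and 7 without sufficient replicate 2 and deficient replicates 5 and 7, where smaller groups separate more often (14% and 20% of all genes). The Zbtb46 difference of -40.9 CPM lay between -52.4 and -25.4 CPM with 1 library left out, and its exact permutation p of 0.0571 is then the smallest that 4 against 3 can give.

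Log2 folds changed sign with limma-voom for Msmo1 (0.13), Hsd17b7 (5.04), Npc1 (0.072), Npc2 (0.18) and Soat1 (-1.33). Without sufficient replicate 2 and deficient replicates 5 and 7 they changed sign for Cyp51 (-0.20), Msmo1 (0.28), Ebp (-0.23), Insig1 (-1.03), Insig2 (0.25) and Soat1 (-4.45), and without sufficient replicate 1 and deficient replicate 6 for Npc1 (0.16). With 1 library left out, folds that changed sign ranged between -0.051 and 0.81 for Hmgcs1, -0.34 and 3.53 for Pmvk, -0.12 and 2.24 for Fdps, -0.46 and 0.35 for Msmo1, -2.01 and 11.17 for Hsd17b7, -0.12 and 0.72 for Ebp, -0.84 and 0.67 for Insig1, -0.73 and 0.064 for Insig2, -0.14 and 0.91 for Srebf2, -0.52 and 0.78 for Npc2, -2.45 and 2.93 for Abcg1, and -0.61 and 0.65 for Soat1. Of the 26 genes, 11 were at 3 counts or fewer in deficient replicate 6 and 0 in sufficient replicate 2. These libraries had totals of 26967170 and 25903922 counts, and 10668 and 14410 genes with at least 1 count. The part of depth or library quality in the low counts was not tested.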

Other observations

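Genes that use isoprenoids or move sterols between membranes were found at overlapping levels. Of 13 genes of isoprenoid use, 12 were tested, 7 with fitted log2 folds above 0 and 5 below. Rabggta, the alpha subunit of the enzyme that adds geranylgeranyl groups to Rab GTPases, had 1.48, 1.44, 1.47 and 0.0313 CPM in deficient ILC3s, against 19.3, 13.9, 67.1 and 0.0393 CPM in sufficient ILC3s. Of the sufficient libraries, 3 lay above all deficient ones and replicate 4 was at 1 count. Its log2 fold was -4.50 (SE 1.95), with an unadjusted p of 0.0434 and an adjusted p of 0.9999 in edgeR's quasi-likelihood test. Rabggtb, the beta subunit, which holds the active site, had 88.7 ± 31.8 CPM in deficient and 130 ± 87.8 CPM in sufficient ILC3s (SD, n = 4 each), with an adjusted p of 0.9999 in edgeR's quasi-likelihood test.

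Of 21 genes of sterol transport and uptake, 17 were tested, 8 with fitted folds above 0 and 9 below, and none passed edgeR's adjusted threshold. The smallest p-values belonged to Gramd1c, a sterol carrier between membranes, and Stard3, a sterol-binding protein of late endosomes. Gramd1c had 4.76 ± 6.18 CPM in deficient and 22.7 ± 26.8 CPM in sufficient ILC3s, and Stard3 had 18.002 ± 20.1 CPM in deficient and 5.97 ± 7.10 CPM in sufficient ILC3s (SD, n = 4 each).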
